A study of Mus musculus with 12 samples.

Results

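The genes described here encode 8 proteins of the mitochondrial iron-sulfur cluster assembly machinery: Nfs1, Lyrm4, Iscu, Fdxr, Hscb, Glrx5, Isca1 and Isca2. They were chosen by name, as genes linked to inherited sensory ataxia, and all 8 were present among the 54532 genes of the count table and among the 17002 genes with enough counts to be tested. The RNA came from dorsal root ganglia, the clusters of sensory neuron cell bodies beside the spinal cord, of C57BL/6 mice given D-alanine. The 6 control libraries carry the genotype label CDH5-Cre, in which the promoter of the endothelial cadherin gene drives a recombinase. The 6 DAAO libraries carry the label DAAO-TGCdh5, a transgene for D-amino acid oxidase, which makes hydrogen peroxide as it oxidises D-alanine; Cre stands in the sample names of both groups but not in that genotype label. The labels give neither ages nor sexes, and do not say whether a library is a single animal or a pool, so p-values measure the spread between these libraries only. The comparison asked which transcripts differed between the genotypes under the same treatment.

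Iron-sulfur clusters are small inorganic cofactors that carry electrons in the respiratory chain and sit in enzymes of the citric acid cycle, lipoate synthesis and DNA repair. In mitochondria a cysteine desulfurase supplies the sulfur, a scaffold protein holds the new cluster, chaperones release it, and carrier proteins bring it to its targets. Large sensory neurons of the dorsal root ganglia are among the cells hit in human ataxias that follow defects of this machinery.

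None of the 8 genes differed between the genotypes by edgeR's quasi-likelihood test, with adjusted p-values over all genes tested from 0.610 for Isca1 to 0.981 for Hscb. Of all genes tested, 0.753% were called in either direction (0.506% higher and 0.247% lower in DAAO), so a count of 0 among 8 genes is near that background. No member reached an unadjusted p under 0.05, which 10.3% of all genes did, the groups overlapped in all 8 (they did not in 1.45% of all genes), and none was called by DESeq2 or by limma-voom with sample weights. All 8 fitted values were negative, with log2 fold changes (DAAO over control) from -0.21 for Glrx5 and Lyrm4 to -0.04 for Nfs1 and Hscb and a median of -0.16, against a median of 0.00 over all genes. That shared sign did not hold in every fit. With scaling by library totals alone it held for 6 of the 8 (Nfs1 and Hscb at 0.00 and 0.01). It held for 6 without DAAO 1 and for 5 with limma-voom. Without controls 2 and 6, only 3 of the 8 values were negative and the median was 0.06. Those 2 libraries had the highest mean level of the 8 genes. Leaving them out therefore raises the mean fold change of the 8 by construction, and is no test of the shared sign.

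Each library held between 13227518 and 23884927 counts. The mitochondrially encoded share of counts was highest in control 6 (7.65%) and control 2 (7.45%), against at most 5.13% in the other libraries. Sensory neuron transcripts were abundant in both groups: Prph, which encodes peripherin, stood at 1998 and 1947 CPM and the actin-binding protein gene Avil at 607 and 638 (means of control and DAAO; CPM is the count scaled to a common library size, with TMM factors). These 2 were among the markers that differed little. Of 10 sensory neuron markers 7 had negative log2 fold changes (median -0.125). Among them 1 was called lower in DAAO, as were 0.247% of all genes tested. Muscle and oligodendrocyte transcripts varied widely between libraries, with Acta1 (skeletal muscle actin) between 2.02 and 729 CPM and Mobp (an oligodendrocyte transcript) between 11.4 and 2097. In whole ganglia, fewer cells of a type and less RNA per cell cannot be told apart.

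The desulfurase itself, Nfs1, takes sulfur from cysteine (ENSMUSG00000027618; GRCm38 chromosome 2, 156123639 to 156144186, minus strand). In controls it ranged from 37.8 to 43.6 CPM with a median of 42.0, and in DAAO from 34.3 to 51.7 with a median of 37.5. The control values were the tightest of the 8 genes, and none of the 6 DAAO values lay inside their range: 4 were below it and 2, in DAAO 3 and DAAO 5, were above. The fitted log2 fold change was -0.04 ± 0.12 (SE; 95% interval -0.29 to 0.21; adjusted p = 0.959). Relative to the mean, the SD was 4.92% among controls and 16.2% among DAAO libraries, which made Nfs1 the 1 gene of the 8 with the larger spread in DAAO. The control SD was close to the counting error at the gene's lowest count, 4.37%. The difference in spread was not tested. Nfs1 overlaps Romo1 on the other strand by 148 bases; Romo1 had a log2 fold change of -0.01 (adjusted p = 0.998).

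Lyrm4, also called ISD11, is the small partner that keeps the desulfurase stable (ENSMUSG00000046573; chromosome 13, 35978395 to 36117526, minus strand). It stood between 37.2 and 61.5 CPM in controls, with a median of 39.7, and between 32.5 and 40.3 in DAAO, with a median of 37.9. The highest control value belonged to control 6, the other 5 controls reached at most 42.6, and 4 of 6 DAAO values lay inside the control range. The log2 fold change was -0.21 ± 0.13 (95% interval -0.49 to 0.08; adjusted p = 0.657), and it was -0.06 without controls 2 and 6. Per kilobase of gene model, Lyrm4 transcripts outnumbered those of Nfs1 by 1.80 ± 0.387 to 1 among controls and 1.63 ± 0.208 to 1 in DAAO (SD, n = 6), ranges that overlapped. Lyrm4 lies head to head with Fars2 on the other strand (overlap of 115 bases; log2 fold change -0.01, adjusted p = 0.994) and spans the pseudogene Tmed10-ps on its own strand, so a part of its counts is uncertain.

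Iscu, the scaffold on which the cluster is built (ENSMUSG00000025825; chromosome 5, 113772748 to 113778288, plus strand), was the most abundant of the 8 per kilobase. Its values ran from 122 to 211 CPM in controls (median 139) and from 99.4 to 152 in DAAO (median 138). The 2 highest libraries were control 6 (211) and control 2 (177), and 5 of 6 DAAO values fell inside the control range. The log2 fold change was -0.19 ± 0.15 (95% interval -0.51 to 0.12; adjusted p = 0.745) and turned to 0.02 without controls 2 and 6.

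Fdxr, ferredoxin reductase, starts the electron supply for cluster building (ENSMUSG00000018861; chromosome 11, 115268024 to 115277050, minus strand). Controls ranged from 10.2 to 31.7 CPM (median 13.3) and DAAO libraries from 9.90 to 21.0 (median 14.0). Control 6 stood alone at 31.7, with the next control at 15.0, and the highest DAAO value was that of DAAO 5. Fdxr had the widest interval of the 8 genes, with a log2 fold change of -0.10 ± 0.26 (95% interval -0.65 to 0.44; adjusted p = 0.955). Its sign turned without control 6 (0.20) and without controls 2 and 6 (0.27).

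Hscb is the J-domain co-chaperone that hands the loaded scaffold to the mitochondrial Hsp70 (ENSMUSG00000043510; chromosome 5, 110829070 to 110839777, minus strand). It had the fewest reads of the 8, between 125 and 278 counts per library. Controls spanned 8.19 to 15.0 CPM (median 11.1) and DAAO libraries 7.93 to 12.9 (median 11.3). Control 2 was highest and DAAO 1 lowest, and 5 of 6 DAAO values lay within the control range. The log2 fold change of -0.04 ± 0.20 (95% interval -0.47 to 0.39; adjusted p = 0.981) was 0.16 without controls 2 and 6. At its lowest count the counting error alone would give an SD of 8.94% of the mean, below the observed 26.4% among controls and 16.9% among DAAO libraries. The counting error was below the observed spread of both groups in all 8 genes, but only narrowly for Nfs1 among controls (4.37% against 4.92%).

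Glrx5, a monothiol glutaredoxin, receives the released cluster (ENSMUSG00000021102; chromosome 12, 105032688 to 105042906, plus strand). It stood between 66.0 and 131 CPM in controls (median 79.9) and between 62.2 and 97.6 in DAAO (median 77.3). Controls 6 and 2 were again the 2 highest libraries (131 and 122), and the other 10 libraries lay between 62.2 and 97.6. The log2 fold change was -0.21 ± 0.18 (95% interval -0.59 to 0.18; adjusted p = 0.787), against 0.11 without controls 2 and 6.

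Isca1 and Isca2 are the A-type carrier proteins of the later steps, which serve the enzymes that need 4Fe-4S clusters. Isca1 (ENSMUSG00000044792; chromosome 13, 59755409 to 59769810, minus strand) ranged from 85.1 to 116 CPM in controls (median 107) and from 80.0 to 105 in DAAO (median 92.7). All 6 DAAO libraries lay below the control median, which held for no other member, but 4 of them were inside the control range. Here control 6 was the lowest control, not the highest. The log2 fold change was -0.19 ± 0.11 (95% interval -0.42 to 0.05; adjusted p = 0.610). It was -0.22 ± 0.10 without controls 2 and 6 (unadjusted p = 0.0418, adjusted p = 0.243). Over the 24 alternatives it lay between -0.25 and -0.14 and passed under none; Isca1 and Lyrm4 were the members whose sign was negative under all of them. Isca1 overlaps Etohd2 on the other strand by 314 bases, and the gene model Gm49354, listed at 0 counts, covers most of it on the same strand.

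Isca2 (ENSMUSG00000021241; chromosome 12, 84773251 to 84775088, plus strand) stood between 32.3 and 58.3 CPM in controls (median 35.4) and between 31.8 and 45.1 in DAAO (median 34.0). Control 6 was the highest library, followed by DAAO 6 and control 2. The log2 fold change was -0.13 ± 0.16 (95% interval -0.46 to 0.21; adjusted p = 0.877) and became 0.10 without controls 2 and 6. Per kilobase, the ratio of Isca1 to Isca2 was 0.477 ± 0.120 among controls and 0.442 ± 0.0729 in DAAO (SD, n = 6). Its lowest value, 0.251, was in control 6 and the next, 0.305, in DAAO 6.

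**Figure D1:**
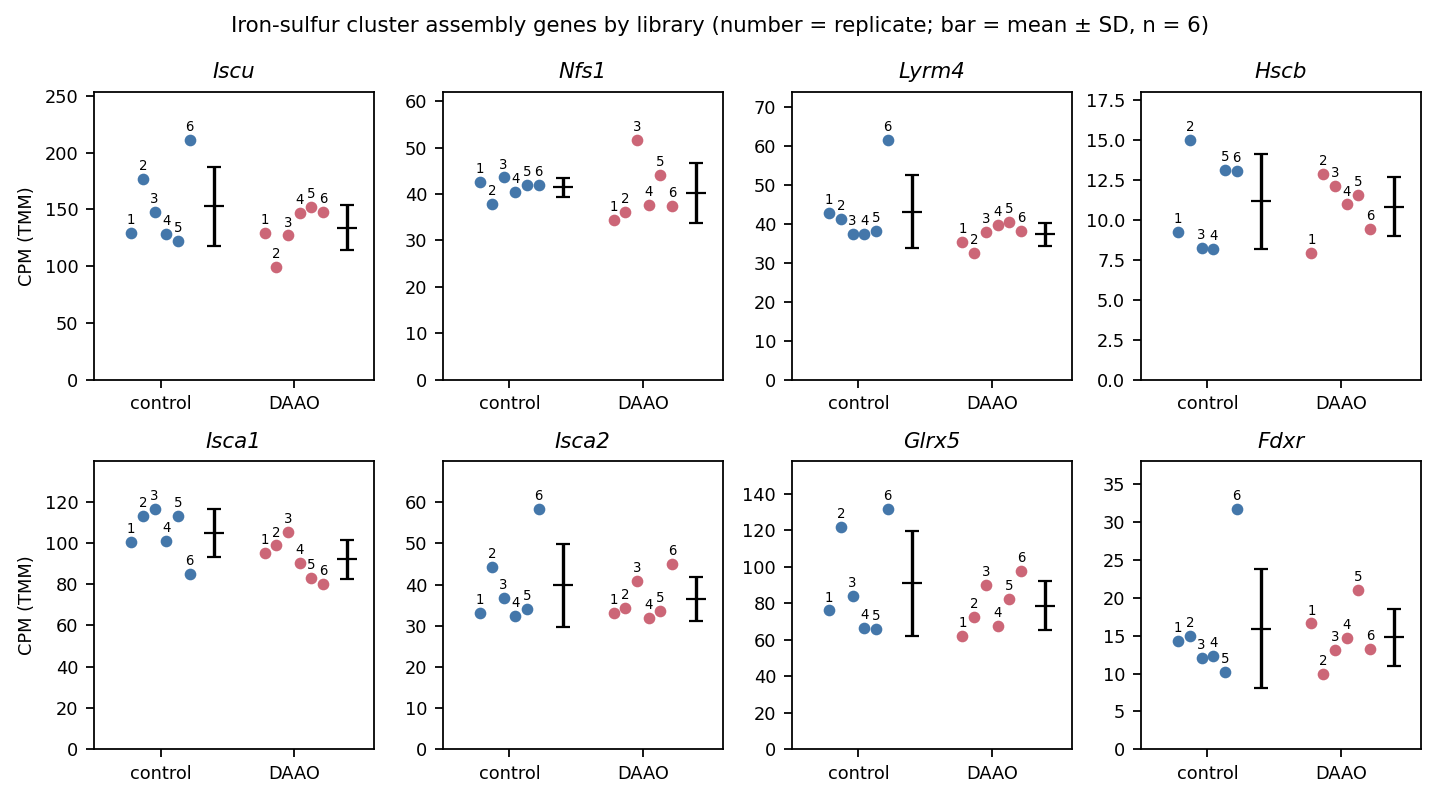
Level of each of the 8 genes in every library, in CPM on axes from 0, with controls in blue and DAAO in red, replicate numbers above the points and mean ± SD (n = 6) at the right of each group. Control 6 is the highest point for Iscu, Lyrm4, Isca2, Glrx5 and Fdxr and the lowest control for Isca1; the groups overlap in all 8 genes.

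The intervals give the changes covered by the fit to all 12 libraries, and other fits gave other limits. For Fdxr the log2 interval was -0.65 to 0.44 in this fit and -0.16 to 0.70 without controls 2 and 6. On a linear scale the lower ends of the 95% intervals corresponded to falls from 18.4% for Nfs1 and 25.2% for Isca1 to 33.6% for Glrx5 and 36.2% for Fdxr. The upper ends corresponded to rises from 3.21% for Isca1 and 5.67% for Lyrm4 to 30.8% for Hscb and 35.8% for Fdxr. These intervals do not show that the genes were the same in both genotypes.

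**Figure D2:**
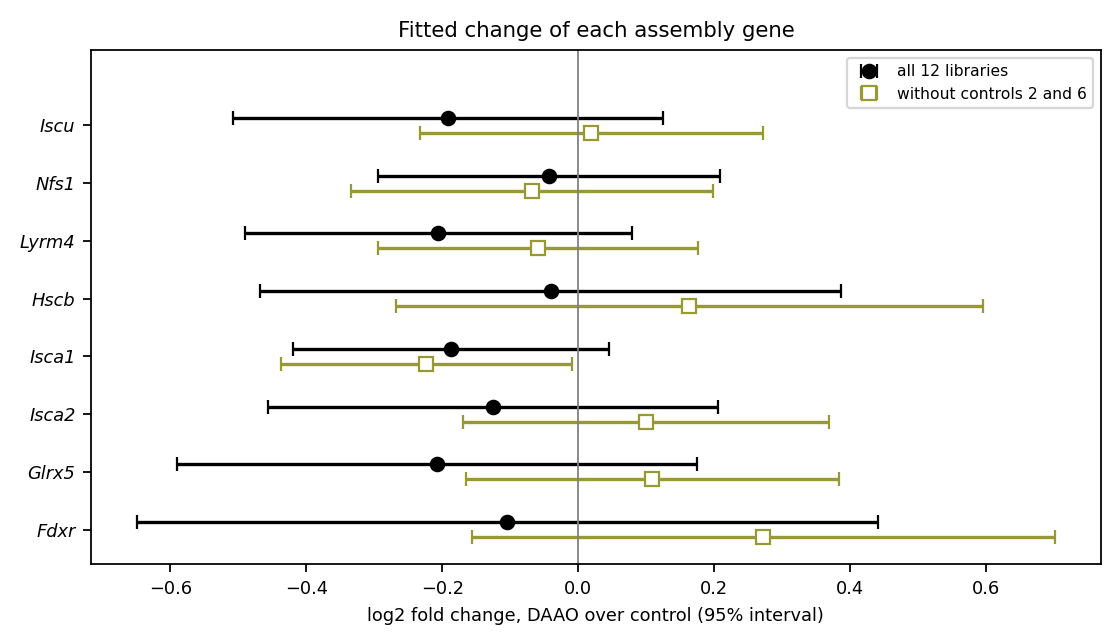
Fitted log2 fold change (DAAO over control, x axis) of each gene with its 95% interval, from all 12 libraries (black circles) and without controls 2 and 6 (open squares). Every black interval crosses 0; without the 2 controls 5 of the 8 values lie to the right of 0 and that of Isca1 stays at -0.22.

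Levels of different genes were compared per kilobase of gene model. In controls Iscu had 70.2 ± 16.1 CPM per kilobase (SD, n = 6), above every library's value of the next gene. Glrx5 (24.7 ± 7.78), Isca2 (21.7 ± 5.47) and Lyrm4 (20.6 ± 4.46) followed and did not differ beyond their spread. Hscb (12.3 ± 3.25), Nfs1 (11.5 ± 0.564), Isca1 (9.82 ± 1.10) and Fdxr (5.68 ± 2.82) came last, with overlapping ranges between neighbours. The gaps below Iscu and between Lyrm4 and Hscb held in both groups, since the lowest library for the higher gene exceeded the highest for the lower gene. In DAAO libraries the order by mean was the same, from Iscu at 61.5 ± 9.11 to Fdxr at 5.27 ± 1.35. Isca1 has by far the longest gene model of the 8 (10680 bases, against 905 to 3682 for the others), which lowers its value on this scale.

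The libraries differed in the assembly genes more than the genotypes did. The mean of the 8 genes, each centred on its own mean (log2 CPM), was highest in control 6 (0.47) and control 2 (0.23), and lay between -0.19 and 0.06 in the other 10 libraries. By group it was 0.06 ± 0.24 among controls and -0.06 ± 0.11 among DAAO libraries (SD, n = 6). The spread was larger in controls for 7 of the 8 genes. Control 6 held the highest value of 5 genes, and in it Fdxr stood 1.12 above its own mean, Glrx5 0.67, Isca2 and Lyrm4 0.63 and Iscu 0.59, while Nfs1 stood at 0.05 and Isca1 at -0.20. Control 2 had its largest deviations in Glrx5 (0.56) and Hscb (0.48), with Nfs1 at -0.10.

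Transcript length moved with these libraries. Among all genes tested, the 4251 with the shortest gene models stood above the 4251 with the longest by 0.38 in control 2 and 0.21 in control 6 (difference in mean centred log2 CPM), and below it by 0.34 in control 4 and 0.28 in control 5; the DAAO libraries lay between -0.07 and 0.14. With this length difference as a term, a fit chosen after seeing the data, all 8 log2 fold changes were negative with a median of -0.18. Glrx5 (-0.28 ± 0.10) and Iscu (-0.25 ± 0.11) then had unadjusted p-values of 0.0149 and 0.0370, and no gene of the 8 passed (edgeR's adjusted p from 0.209 to 0.907). The mean centred level of 10 skeletal muscle markers was 2.44 in control 2 and -2.82 in control 6, within a range from -2.82 to 4.80 in controls and from -3.70 to 2.18 in DAAO; all 10 had negative log2 fold changes (median -2.34, none called). That of 10 sensory neuron markers was highest in control 6 (0.44) and stood at -0.29 in control 2. Glial markers were high in control 2, at 2.71 for 7 oligodendrocyte markers, 1.07 for 5 satellite glia markers and 1.10 for 8 myelinating Schwann cell markers, each the highest of the 12 libraries, against -1.50, -0.26 and 0.11 in control 6. The Schwann cell markers were lower in DAAO libraries by fold change in 8 of 8 cases (median log2 value -0.50, 6 with an unadjusted p under 0.05, none called), and 6 of 8 macrophage markers had positive ones (median 0.82, 5 of the 8 with an unadjusted p under 0.05, none called). The part of length, of the mitochondrial share of counts and of the makeup of the tissue in the values of the 8 genes was not tested beyond these fits.

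**Figure D3:**
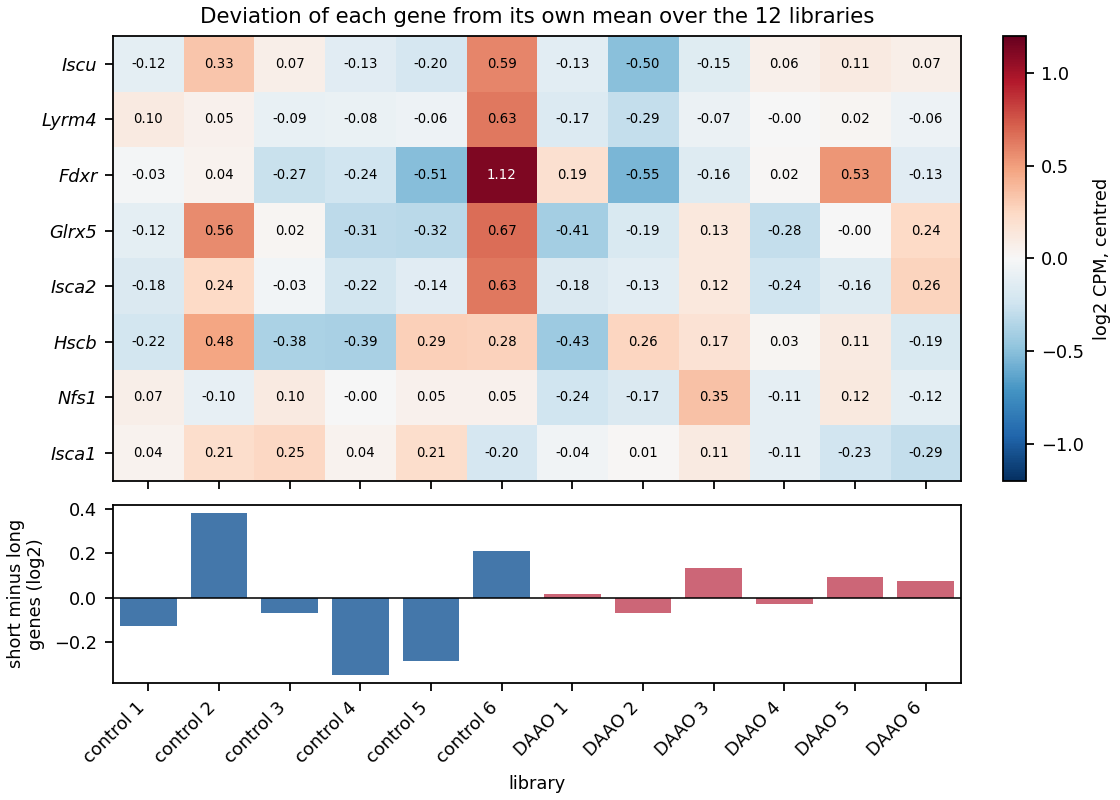
Upper panel, log2 CPM of each gene (rows) in each library (columns) minus the gene's mean over the 12 libraries, with red above and blue below that mean; lower panel, difference in mean centred log2 CPM between the 4251 shortest and the 4251 longest of all genes tested, controls in blue and DAAO in red. Control 6 is red in 5 rows by 0.59 to 1.12 and blue for Isca1, and controls 2 and 6 have the highest bars.

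Some of the genes varied together across libraries. The closest pair was Isca2 and Glrx5 (Pearson r = 0.92, Spearman rho = 0.81 over 12 libraries), and the likeness remained at r = 0.85 in the 10 libraries without controls 2 and 6. Iscu, Lyrm4 and Fdxr had r between 0.80 and 0.83 with each other, and between 0.49 and 0.65 without those controls. Isca1 ran the other way against Fdxr (r = -0.57, or -0.61 without the controls), and the r of Nfs1 with the other members was at most 0.24, and at most 0.49 without those controls. Over all 28 pairs the median r was 0.23. These values are descriptions over libraries that share their depth and scaling, and carry no test. Of 14158 genes outside the lists, those most like the mean of the 8 were Snrpd1, a spliceosome core protein (r = 0.97 over 12 libraries), Mrpl43, a mitochondrial ribosomal protein (0.96), Elob, elongin B (0.94), Ndufa8, a complex I subunit (0.94), and Rps19bp1 (0.93). Without controls 2 and 6 these were between 0.71 and 0.90. All 5 have short gene models of 837 to 1398 bases, and none was called (adjusted p from 0.699 to 0.763).

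The bases before the start sites of Isca2 and Glrx5 are shown because this pair stayed together across libraries, and those of Isca1 because it did not follow them. The sequences are from RefSeq (GRCm38.p6), which had an entry for 6 of the 8 genes, and give the 250 bases before the start, 5′ to 3′ on the gene's strand. Isca2 lies at chr12:84773020-84773269 on the plus strand, Glrx5 at chr12:105032368-105032617 on the plus strand and Isca1 at chr13:59769790-59770039 on the minus strand. Capitals mark CCAAT on either strand, the box bound by the general factor NF-Y.
Isca2: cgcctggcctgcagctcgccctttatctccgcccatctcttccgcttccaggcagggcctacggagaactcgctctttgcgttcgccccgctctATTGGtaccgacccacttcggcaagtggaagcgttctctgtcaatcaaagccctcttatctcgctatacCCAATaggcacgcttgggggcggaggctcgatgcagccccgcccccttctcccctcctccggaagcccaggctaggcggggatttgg
Glrx5: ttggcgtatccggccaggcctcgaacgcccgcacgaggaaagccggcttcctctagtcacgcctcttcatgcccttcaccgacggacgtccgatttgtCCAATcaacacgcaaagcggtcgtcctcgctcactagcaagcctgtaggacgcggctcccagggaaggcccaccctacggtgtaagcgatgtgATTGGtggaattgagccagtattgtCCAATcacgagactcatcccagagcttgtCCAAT
Isca1: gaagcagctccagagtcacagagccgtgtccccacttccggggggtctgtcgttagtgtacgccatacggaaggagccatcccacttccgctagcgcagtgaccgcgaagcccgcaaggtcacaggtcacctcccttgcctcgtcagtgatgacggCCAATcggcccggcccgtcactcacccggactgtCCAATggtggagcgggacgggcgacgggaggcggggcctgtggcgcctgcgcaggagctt
CCAAT occurred 2 times in the Isca2 window, 4 times in that of Glrx5 and 2 times in that of Isca1, and at all in 4 of the 6 member windows, where 33.8% of 32851 windows of the same length held it. The ETS motif CCGGAAG was in 4 of the 6 (6.91% of all windows), and TGACNNNGC, the core of the antioxidant response element, was in those of Isca1 and Nfs1, 2 times each (10.2% of all). The palindromic NRF1 motif was in none of the 6 (0.782% of all). The member windows held from 54.8% G and C for Fdxr to 72.8% for Lyrm4, against a median of 52.4% over all windows. The shares over all windows were not matched for this. Motifs were searched on both strands, and a match is only a description of the sequence.

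The other genes of cluster assembly were read from lists by role. None of the 57 tested members of these lists was called by edgeR, where 0.753% of all genes were. Of the 57, 5 had an unadjusted p under 0.05, where 10.3% of all genes did. DESeq2 and limma-voom called none of the 57 either. Among the partners and transporters, Ndufab1, the acyl carrier protein that binds the desulfurase complex, had 92.4 ± 22.5 CPM in control and 76.3 ± 8.14 in DAAO libraries (adjusted p = 0.548). The median of the 7 tested was -0.10. The late factors had a median of -0.02 over 6 genes, with Lyrm7, an assembly factor that passes the cluster protein to complex III, at 8.96 ± 2.03 and 6.20 ± 1.04 CPM (-0.53 ± 0.21, adjusted p = 0.366) and Bola3 at -0.23 (adjusted p = 0.739). The 11 genes of the cytosolic assembly pathway had a median of -0.02, and the smallest p-values there were those of Nubp2 (0.21, adjusted p = 0.571) and Glrx3 (-0.16, adjusted p = 0.701).

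Genes for proteins that carry the clusters were read by compartment, and none was called. Of 14 mitochondrial clients 11 had negative values, with a median of -0.19. Ndufv2 and Ndufs7, complex I subunits that hold clusters, had the smallest p-values: Ndufv2 stood at 212 ± 58.6 and 156 ± 18.6 CPM (-0.44 ± 0.16, adjusted p = 0.319), and Ndufs7 at 140 ± 36.0 and 107 ± 10.2 (-0.39 ± 0.15, adjusted p = 0.355). Both were below the control median in 6 of 6 DAAO libraries. Both passed with the length difference as a term (edgeR's adjusted p = 0.0190 and 0.0158), a fit chosen after seeing the data. With that term 236 of 17002 genes were called, against 128 without it. Without controls 2 and 6, Ndufv2 was at -0.19 (edgeR's adjusted p = 0.420) and Ndufs7 at -0.13 (adjusted p = 0.535). Of the 14, 0 then had an unadjusted p under 0.05. With all libraries 3 had, where 10.3% of all genes tested did. Controls 2 and 6 held the highest control values of both genes (Ndufv2 299 and 260 CPM, Ndufs7 192 and 179). Leaving them out therefore raises both fold changes by construction, and is no test of them. A list of 12 mitochondrial genes whose products hold no iron-sulfur cluster, among them the ATP synthase subunit Atp5b and the cytochrome oxidase subunit Cox6c, had a median of -0.21 with 11 negative and none called (adjusted p = 0.542 and 0.496 for these 2). The 19 tested clients of the cytosol and nucleus had a median of 0.09, with 14 positive; Nthl1, a DNA glycosylase, had -0.63 (adjusted p = 0.507) and Cisd2 -0.21 (adjusted p = 0.516). Without controls 2 and 6 the medians were -0.11 for the mitochondrial clients, -0.13 for the mitochondrial genes without clusters and 0.03 for the cytosolic and nuclear clients. Whether the compartments differ was not tested.

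**Figure D4:**
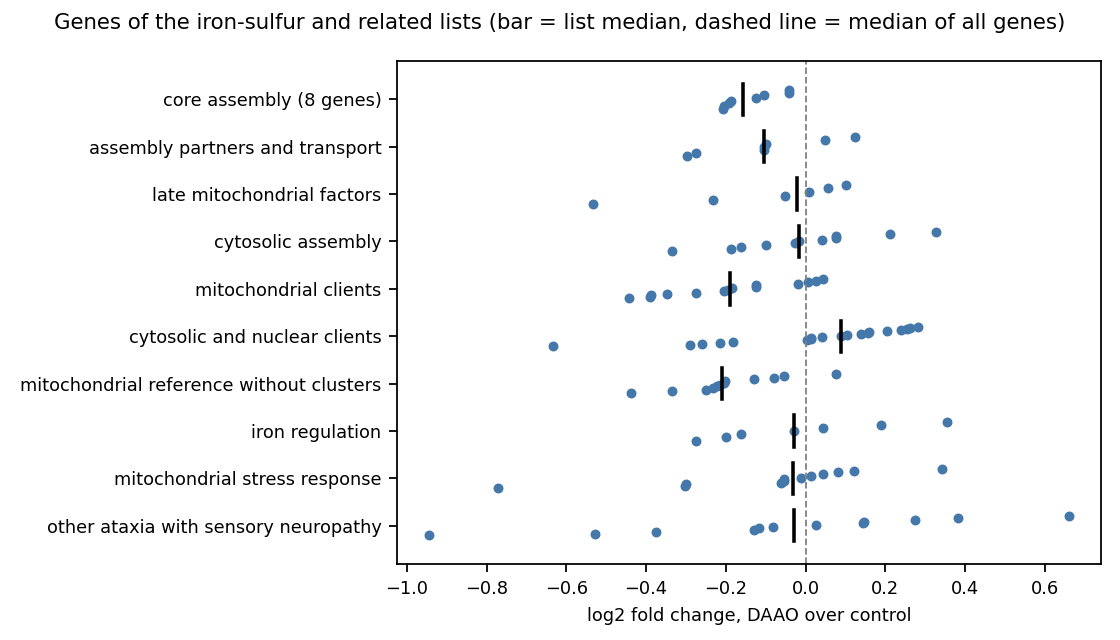
Fitted log2 fold change (DAAO over control, x axis) of every tested gene of the assembly, client and related lists (rows), with the list median as a black bar and the median of all genes tested as a dashed line. The 8 core genes lie between -0.21 and -0.04 with a median of -0.16, close to the mitochondrial clients (-0.19) and the mitochondrial genes without clusters (-0.21).

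Among genes of iron handling and of the stress response to failing mitochondria, none was called with all libraries and members went both ways. The 7 iron regulation genes had a median of -0.03; Ftl1, the ferritin light chain, stood at 441 ± 138 and 565 ± 123 CPM (adjusted p = 0.569), and Tfrc, the transferrin receptor, at 110 ± 20.6 and 95.5 ± 5.48 (adjusted p = 0.631). The 12 tested genes of the mitochondrial stress response had a median of -0.03, with Mthfd2, a mitochondrial folate enzyme, at -0.30 (adjusted p = 0.537) and the transcription factor Atf5 at 0.34 (adjusted p = 0.559). Without controls 2 and 6 Atf5 was at 0.61 ± 0.15 (edgeR's adjusted p = 0.0326), and the list's median was 0.21. That fit called 648 of 17834 genes tested, against 128 of 17002 with all libraries. Controls 2 and 6 had the highest Atf5 values among controls (123 and 90.8 CPM). Leaving them out therefore raises the fold change of Atf5 by construction, and is no test of a rise. The list's mean centred level was also highest in these libraries (0.32 and 0.27). Of 12 other genes of inherited ataxia with sensory neuropathy none was called, with a median of -0.03. Mttp, the microsomal triglyceride transfer protein, had 0.66 ± 0.24 (adjusted p = 0.316) and Coq8a, a factor for coenzyme Q synthesis, -0.53 ± 0.21 (adjusted p = 0.386). In the same libraries Esrrg, Runx3, Etv1 and Whrn fell, 4 of 9 markers of large-diameter and proprioceptive neurons, a list whose fall was known when it was chosen. Over all genes tested 0.247% were called lower. Esrrg and Runx3 passed in all 12 fits with 1 library left out at a time. In those fits Etv1 missed in 3 (without DAAO 1, 2 or 6) and Whrn missed in 9 (it passed without control 2, control 5 or DAAO 1). Without controls 2 and 6, where 648 of 17834 genes were called, 6 of the 9 markers were.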

How the data were processed

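Paired reads of total RNA from dorsal root ganglia were sequenced for 12 libraries, 6 control and 6 DAAO, grouped by the labels. The authors deposited whole-number counts per gene, not normalised; the names given per the submitters' processing notes are the builds GRCm38 and mm10 and the tools DESeq2 1.20.0, HISAT2 2.0.5 and FastQC. The counter, its strand setting and the annotation are steps not given in the sources used here. Reads of overlapping genes cannot be told apart. The deposited gene length (another column, in bases) was used for values per kilobase.

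Genes were kept by edgeR's filterByExpr (minimum count 10, minimum total 15; 17002 of 54532 genes, at least 99.7% of each library's counts), and scaled by TMM. The two-sided test was edgeR's quasi-likelihood test, robust form (version 4.0.16, R 4.3.3). P-values were adjusted over all genes by Benjamini-Hochberg, with a threshold of 0.05. SE is the absolute log2 fold change over the square root of F. Centred levels used log2 CPM with a prior count of 2. The fit was tested on simulated data. Alternatives were other scalings and filters, DESeq2 1.42.0, limma-voom 3.58.1, the replicate number as a block, marker levels as terms, and libraries left out; the length term was added after seeing the data. The members and lists were chosen with earlier results of these data known. Named were the 8 members, list genes that passed or had the 2 smallest p-values of their list, and the 5 genes most alike in pattern (mean log2 CPM 1 or more). Prph, Avil, Acta1 and Mobp were named outside this rule, to describe the tissue, as were genes overlapping a member. Some list genes that this rule names are not reported here, though they stay in the counts and medians. Precision is limited by the 6 libraries per group.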

Additional observations from a re-analysis of the deposited data

Results flagged for a closer look

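Lyrm4 in control 6, at 61.5 CPM, stood far from the other 5 controls, which lay between 37.2 and 42.6. Fdxr in control 6, at 31.7 CPM, likewise stood apart from controls between 10.2 and 15.0. These were 2 of 20 groups of 6 libraries examined for a lone value; chance flags about 1 in 20.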

How the results depend on the processing

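No member was called under any of the 24 alternatives, whose lowest adjusted p over the members was 0.209. Of 192 fold changes of members under them, 17 were of the other sign, and none of these passed. With library totals as scaling Nfs1 was 0.0019 and Hscb 0.0084. With limma-voom Hscb was 0.15, Isca2 0.022 and Fdxr 0.11, and with the sensory neuron level as a term Fdxr was 0.090. Without controls 2 and 6 the members' median was 0.060, with Iscu at 0.019, Hscb 0.16, Isca2 0.10, Glrx5 0.11 and Fdxr 0.27. Leaving out 1 library at a time gave Nfs1 from -0.14 to 1.8e-05, Hscb from -0.12 to 0.068, Isca2 from -0.19 to 0.0073 and Fdxr from -0.23 to 0.20, and a members' median from -0.20 to -0.06, the highest without control 6. The cause was not tested. The number of genes called, 128, was 362 with DESeq2, 295 with limma-voom, 648 without controls 2 and 6, 236 with the length term, and from 61 to 322 with 1 library left out. Other iron-sulfur genes called were 2 with the length term and 0 under every other alternative.

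With the replicate number as a block, 187 genes and no member were called, and the members' median was -0.14. The deviations of same-numbered libraries had correlations between -0.0807 and 0.215, and 3 of 6 controls correlated best with their own number. These values do not settle whether the number pairs the libraries. The labels name no pairing, and the main fit used none. Scaling moved the median of all genes by at most 0.05. Depth limits Hscb most, with 125 to 278 counts a library.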
